A study of Mus musculus with 24 samples.

Results

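A set of 10 genes used as markers of T lymphocytes, named as Cd3d, Cd3e, Cd3g, Cd4, Cd8a, Cd8b1, Nkg7, Ms4a4b, Trbc2 and Lck, was followed through the ageing mouse inner ear. They were chosen by name, with no measured value in the rule but with earlier results of these data known. Of the 10, 9 have a row among the 18440 genes of the aging count table. Trbc2, which encodes a constant region of the T cell receptor beta chain, has no row under that symbol and was not analysed here. The study holds 24 bulk RNA libraries. Of these, 12 are from inner ears of untreated wild-type male C57BL6/J mice of 3, 11 and 20 months, with 4 mice per age, and their titles call the tissue cochlea. The bone was taken away and the soft tissue inside it was used whole. The other 12 are inner ear organoids grown in Matrigel from cochlear epithelium of newborn mice, with 3 libraries each for TNF-α, for lentiviral RBM25 knockdown, for both agents, and for untreated controls. How much TNF-α was given, and for how long, is not stated in the labels.

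A T cell recognises antigen through a receptor of variable chains that carries no signalling part of its own. The CD3 gamma, delta and epsilon chains, encoded by Cd3g, Cd3d and Cd3e, travel with the receptor and carry the signal into the cell. The co-receptors CD4 and CD8 bind major histocompatibility complex (MHC) molecules of class II and class I, and CD8 is a pair of alpha chains or of an alpha and a beta chain, from Cd8a and Cd8b1. The kinase Lck rides on the tails of the co-receptors and starts the signal by phosphorylating CD3. Nkg7 encodes a granule membrane protein of cytotoxic T cells and natural killer cells, and Ms4a4b encodes a membrane-spanning protein of mouse T cells. The genes are not private to one cell type, since natural killer cells also make Lck and Nkg7 and some mouse dendritic cells make Cd4.

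Some of these genes are neighbours in the genome (GRCm38, the build the submitters name as mm10). Cd3g (chr9:44969572-44980431) and Cd3d (chr9:44981769-44987052) lie head to head, 1337 bases apart, and Cd3e (chr9:44998735-45009663) follows 11682 bases after Cd3d. Cd8b1 (chr6:71322788-71337492) and Cd8a (chr6:71373427-71379171) are 35934 bases apart, and Cd4 lies elsewhere on the same chromosome (chr6:124864693-124888247). Nkg7 is at chr7:43437138-43438246, Ms4a4b at chr19:11443558-11463549 and Lck at chr4:129548344-129573641. Exons of Cd3e overlap those of Gm48719 on the opposite strand and exons of Lck overlap Mir8119, and the library kit does not mark strand, so reads in the shared stretches cannot be assigned. Ms4a4b belongs to a family of similar genes beside it on chromosome 19, and how reads matching several of them were counted is not given in the sources used here.

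RefSeq start sites of GRCm38.p6 gave 8 promoter windows for 7 of the genes, and the 250 bases before the start are printed for the divergent pair Cd3g and Cd3d, and for Cd8a, Ms4a4b and Nkg7, the genes with the largest fold differences below. Each runs 5′ to 3′ on the gene's own strand. Capitals mark matches, on either strand, to 5 short motifs of lymphoid transcription factor families. The letters searched were AGGAAG for ETS factors and TGTGGT for RUNX factors. For GATA factors they were AGATAA and for the TCF/LEF family CTTTGA, and an E-box was read as CAGNTG. None of the matches shown overlap.
Cd3g (chr9:44980432-44980681, minus strand): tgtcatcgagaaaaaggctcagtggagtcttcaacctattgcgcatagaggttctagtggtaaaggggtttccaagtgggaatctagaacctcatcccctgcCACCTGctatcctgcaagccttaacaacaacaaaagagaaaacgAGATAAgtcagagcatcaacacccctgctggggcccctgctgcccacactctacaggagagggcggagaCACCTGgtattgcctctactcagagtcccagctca
Cd3d (chr9:44981536-44981785, plus strand): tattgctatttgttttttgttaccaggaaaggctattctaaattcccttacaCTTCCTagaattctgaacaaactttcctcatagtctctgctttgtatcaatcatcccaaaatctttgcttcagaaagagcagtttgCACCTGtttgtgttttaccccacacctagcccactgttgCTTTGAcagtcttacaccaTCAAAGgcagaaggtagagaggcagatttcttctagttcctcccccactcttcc
Cd8a (chr6:71373177-71373426, plus strand): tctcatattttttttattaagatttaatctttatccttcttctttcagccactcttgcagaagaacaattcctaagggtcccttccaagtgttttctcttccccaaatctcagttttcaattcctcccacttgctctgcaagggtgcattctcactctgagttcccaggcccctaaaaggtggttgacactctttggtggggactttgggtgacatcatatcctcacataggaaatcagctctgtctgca
Ms4a4b (chr19:11443308-11443557, plus strand): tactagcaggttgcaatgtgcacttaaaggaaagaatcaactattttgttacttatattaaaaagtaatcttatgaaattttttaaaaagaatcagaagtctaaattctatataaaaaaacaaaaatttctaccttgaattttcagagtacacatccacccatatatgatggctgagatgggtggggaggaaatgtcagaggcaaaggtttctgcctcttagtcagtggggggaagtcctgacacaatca
Nkg7 (chr7:43436888-43437137, plus strand): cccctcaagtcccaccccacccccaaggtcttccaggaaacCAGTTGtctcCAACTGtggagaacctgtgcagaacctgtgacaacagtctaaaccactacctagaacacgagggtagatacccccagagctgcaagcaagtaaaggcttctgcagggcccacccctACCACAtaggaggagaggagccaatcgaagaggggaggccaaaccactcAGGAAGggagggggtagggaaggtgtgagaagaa
The ETS letters stood in 5 of the 8 windows of these genes and in 29.6% of 32536 RefSeq promoters of the same length. The E-box letters stood in 4 windows (44.9% of all promoters), RUNX in 2 (13.96%), and GATA (9.97%) and TCF/LEF (13.9%) in 1 each. The windows of Cd8a and Ms4a4b hold none of the 5 motifs.

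The 12 inner ear libraries held 30599012 to 38451292 counts each, and no 2 replicates of an age agreed within sampling noise (chi-square per degree of freedom 16 to 86.9). At this depth a library with 0 counts of a gene allows a level of up to 0.0791 to 0.0968 CPM (counts relative to library size, scaled with trimmed-mean factors), counting error only. Differences between ages come from 1 edgeR quasi-likelihood fit over 15525 genes and all 12 libraries, with Benjamini-Hochberg adjustment over those genes, and a gene is called at an adjusted p under 0.05. Hair cell, stria vascularis and ganglion marker genes all had counts at every age, so the libraries carry the labelled tissue. In bulk RNA, more cells of a type and more RNA per cell cannot be told apart.

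All 3 CD3 chain genes had their highest mean level at 20 months, and Cd3d and Cd3g passed the test against 3 months. Cd3d gave 0, 1, 0 and 1 counts in the 4 libraries of 3 months, 5, 10, 0 and 3 counts at 11 months, and 15, 2, 18 and 13 counts at 20 months. It was thus nearly silent at 3 months. The libraries of 20 and 3 months did not overlap, but only by 2 counts against 1. The 2 counts, in 20 months replicate 2, are 0.0645 CPM, below the 0.0884 CPM that 0 counts in 3 months replicate 1 still allow. Its pooled CPM (the counts of an age over its summed scaled library sizes) was 24.8 times higher at 20 than at 3 months, with a 95% counting interval of 6.51 to 211 (log2 fold change 4.32, SE 1.16, adjusted p = 0.0184), and the adjusted p was 0.0521 without 3 months replicate 1. Cd3g gave 0, 3, 4 and 7 counts at 3 months, 25, 15, 20 and 0 counts at 11 months, and 18, 16, 24 and 41 counts at 20 months. Replicate 4 of 11 months had none, while the other 3 libraries of that age overlapped those of 20 months. The log2 fold change of Cd3g between 20 and 3 months was 2.84 (SE 0.93, adjusted p = 0.0429), a call that 10 of the 12 fits with 1 library left out did not keep. The exceptions were those without 11 months replicate 4 or 20 months replicate 2, and the adjusted p reached 0.108 without 20 months replicate 4.

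Cd3e had counts in every library of 3 months. It gave 23, 16, 8 and 6 counts at 3 months, 23, 22, 36 and 11 counts at 11 months, and 49, 17, 23 and 40 counts at 20 months, so all ages overlapped. Its difference between 20 and 3 months did not pass (log2 fold change 1.31, SE 0.54, adjusted p = 0.0945). Per length, Cd3e stood at 0.267 ± 0.155 FPKM at 3 months, beside 0.101 ± 0.0809 FPKM of Cd3g and 0.00984 ± 0.0114 FPKM of Cd3d (SD, n = 4 each). At 20 months the 3 genes stood at 0.687 ± 0.305, 0.761 ± 0.358 and 0.246 ± 0.140 FPKM of Cd3e, Cd3g and Cd3d (SD, n = 4 each).

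Both co-receptor genes rose with age, Cd8a from near absence and Cd4 from a measurable level. Cd8a gave 0, 0, 5 and 1 counts at 3 months, 22, 25, 32 and 18 counts at 11 months, and 93, 27, 69 and 59 counts at 20 months. Every library of 20 months lay above every library of 3 months. In CPM each also lay above every library of 11 months, though only by 0.871 against 0.844 CPM at the closest. The difference between 20 and 3 months was the largest of the 9 genes (log2 fold change 5.29, SE 0.77, adjusted p = 0.000734), and the pooled CPM was 42.8 times higher, with a counting interval of 19.4 to 118. Of the 6 counts of Cd8a at 3 months, 5 came from replicate 3, and without that library the log2 fold change was 7.13.

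Cd8b1, the beta chain gene, gave 0, 0, 5 and 0 counts at 3 months, 11, 14, 10 and 1 counts at 11 months, and 39, 16, 13 and 16 counts at 20 months. The libraries of 20 and 3 months did not overlap, while those of 11 months reached into both. The log2 fold change between 20 and 3 months was 3.98 (SE 1.03, adjusted p = 0.0159), and 7.46 without replicate 3 of 3 months, which held all the counts of that age. Per length, the ratio of Cd8b1 to Cd8a within a library had a median of 0.859 at 11 months (0.117 to 1.18) and 0.730 at 20 months (0.398 to 1.25). The ratios of both ages thus overlapped, with the lowest value of 11 months resting on 1 count of Cd8b1, and the 3-month libraries hold too few counts to give one.

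Cd4 gave 21, 30, 55 and 31 counts at 3 months, 63, 58, 64 and 78 counts at 11 months, and 135, 105, 94 and 157 counts at 20 months. The 3 ages did not overlap in CPM, at means of 1.03 ± 0.447, 1.84 ± 0.223 and 3.79 ± 0.869 CPM (SD, n = 4 each). The gap between 3 and 11 months was narrow. It lay between 1.66 CPM (55 counts) in 3 months replicate 3 and 1.69 CPM (64 counts) in 11 months replicate 3. The difference between 11 and 3 months did not pass (log2 fold change 0.84, SE 0.31, adjusted p = 0.1675). Cd4 passed the test between 20 and 3 months (log2 fold change 1.88, SE 0.31, adjusted p = 0.00152) and between 20 and 11 months (1.04, SE 0.30, adjusted p = 0.0347). The second call was lost on leaving out 11 months replicate 1, 2 or 3, and also 20 months replicate 1, 2 or 4, with an adjusted p of up to 0.0993.

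**Figure D1:**
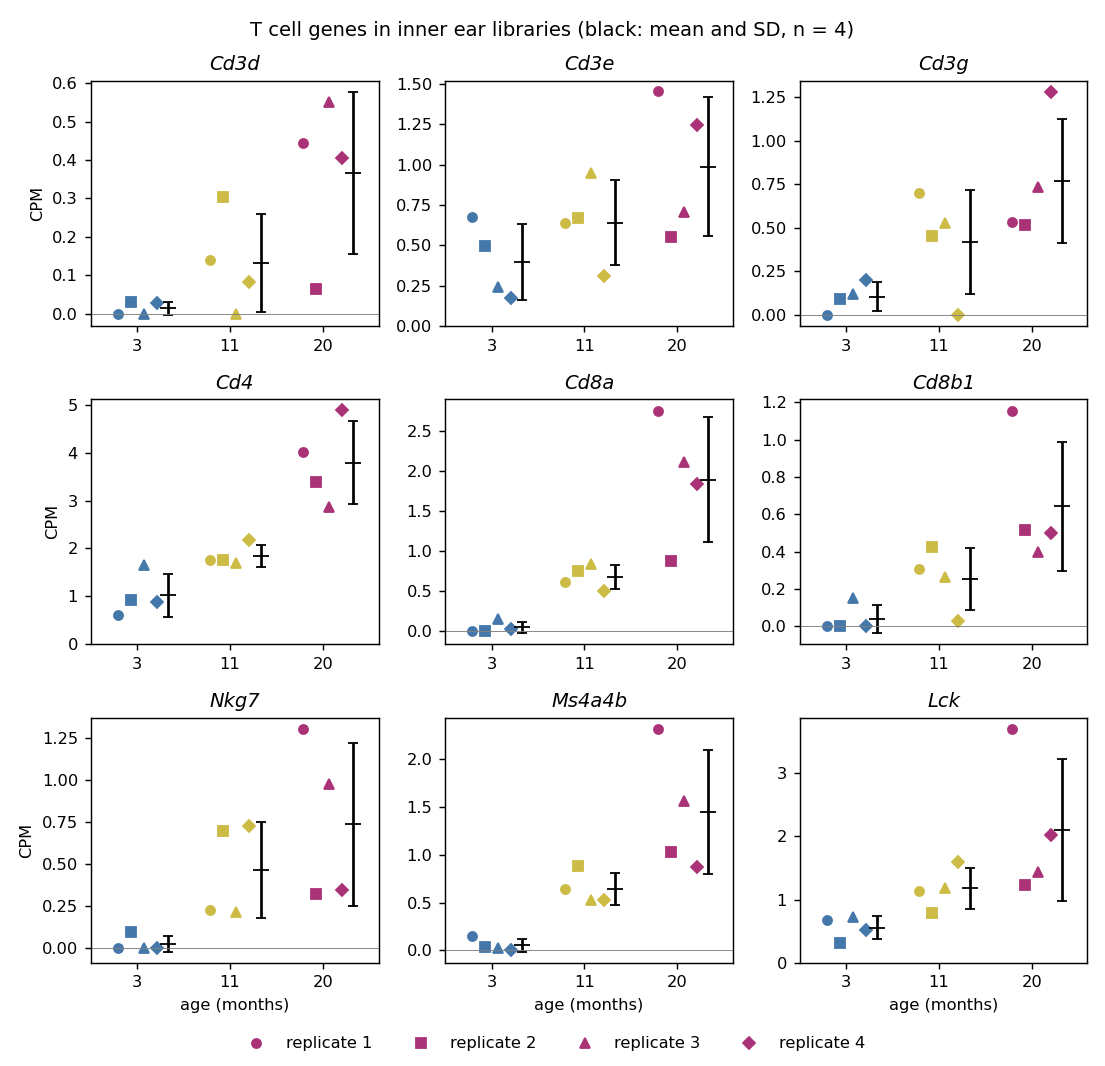
CPM of 9 T cell genes (y axis, one panel each with its own scale) against age in months, one marker shape per replicate number and black bars for mean and SD (n = 4). Cd8a, Cd8b1, Nkg7, Ms4a4b and Cd3d lie at or near 0 at 3 months, while Cd4, Lck and Cd3e have counts in every library; 20 months replicate 1 is the highest library of its age in 6 of the panels.

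The ratio of the co-receptor genes was lowest at 3 months. The FPKM of Cd8a relative to Cd4 within a library was 0, 0, 0.101 and 0.0358 at 3 months, 0.387, 0.478, 0.554 and 0.256 at 11 months, and 0.764, 0.285, 0.814 and 0.417 at 20 months. Every library of 11 and 20 months lay above every library of 3 months, and the ratios of 11 and 20 months overlapped. Over pooled counts, Cd8a reached 0.0438 of Cd4 at 3 months, 0.369 at 11 months and 0.505 at 20 months. No test was run on the ratio, whose numerator at 3 months rests on 6 counts.

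**Figure D2:**
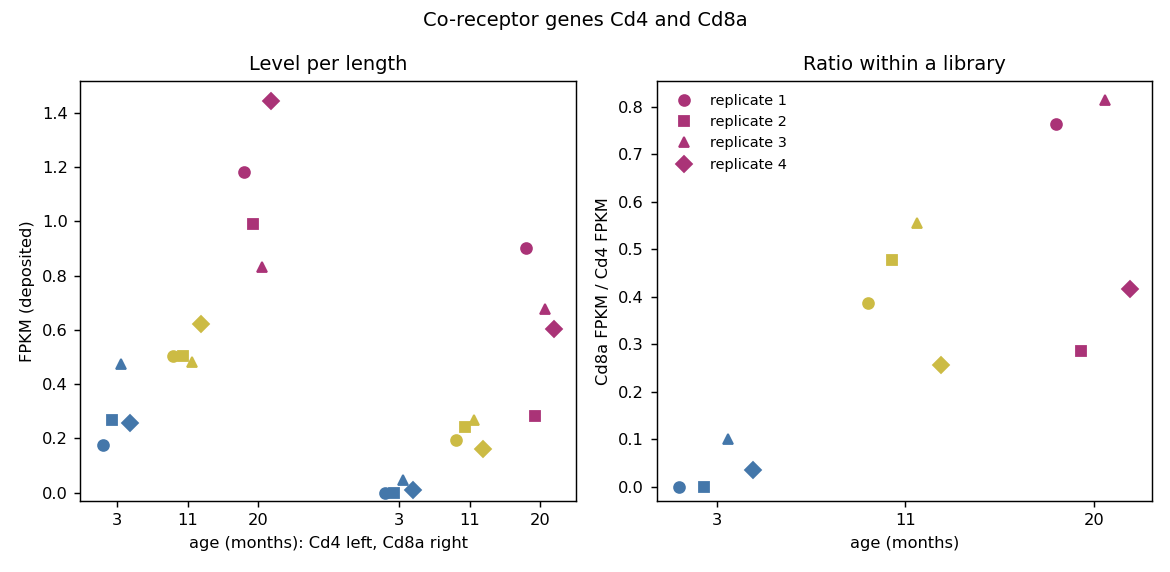
Left, deposited FPKM of Cd4 and Cd8a (y axis) in each inner ear library at 3, 11 and 20 months; right, the Cd8a to Cd4 ratio of FPKM within each library, one marker shape per replicate number. The ratio is at most 0.101 at 3 months and 0.256 to 0.814 at the later ages.

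Lck, the kinase bound to the co-receptors, gave 23, 10, 24 and 18 counts at 3 months, 41, 26, 45 and 57 counts at 11 months, and 125, 38, 47 and 65 counts at 20 months. The libraries of 3 months lay below all others, and those of 11 and 20 months overlapped, with 20 months replicate 1 far above the rest. Lck rose at 20 against 3 months by a log2 fold change of 1.91 (SE 0.43, adjusted p = 0.00797), a size near that of Cd4. Its difference between 11 and 3 months did not pass (log2 fold change 1.07, SE 0.43, adjusted p = 0.204).

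Nkg7 and Ms4a4b, like Cd8a, went with an almost empty 3-month group. Nkg7 gave 0, 3, 0 and 0 counts at 3 months, 8, 23, 8 and 26 counts at 11 months, and 44, 10, 32 and 11 counts at 20 months. Within 11 and within 20 months 2 libraries were high and 2 low, and these ages overlapped in part. Its pooled CPM was 33.5 times higher at 20 than at 3 months, with a counting interval of 11.1 to 165 (log2 fold change 4.82, SE 1.01, adjusted p = 0.00543). All counts of Nkg7 at 3 months came from replicate 2, and the log2 fold change without that library was 7.65.

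Ms4a4b gave 5, 1, 1 and 0 counts at 3 months, 23, 29, 20 and 19 counts at 11 months, and 78, 32, 51 and 28 counts at 20 months. The 3-month libraries stood apart from both later ages, which overlapped. Ms4a4b rose at 20 against 3 months by a log2 fold change of 4.70 (SE 0.69, adjusted p = 0.000831), and its pooled CPM was 28.0 times higher with a counting interval of 13.3 to 70.5. Without 3 months replicate 1, which held 5 of the 7 counts, the log2 fold change was 5.93.

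**Figure D3:**
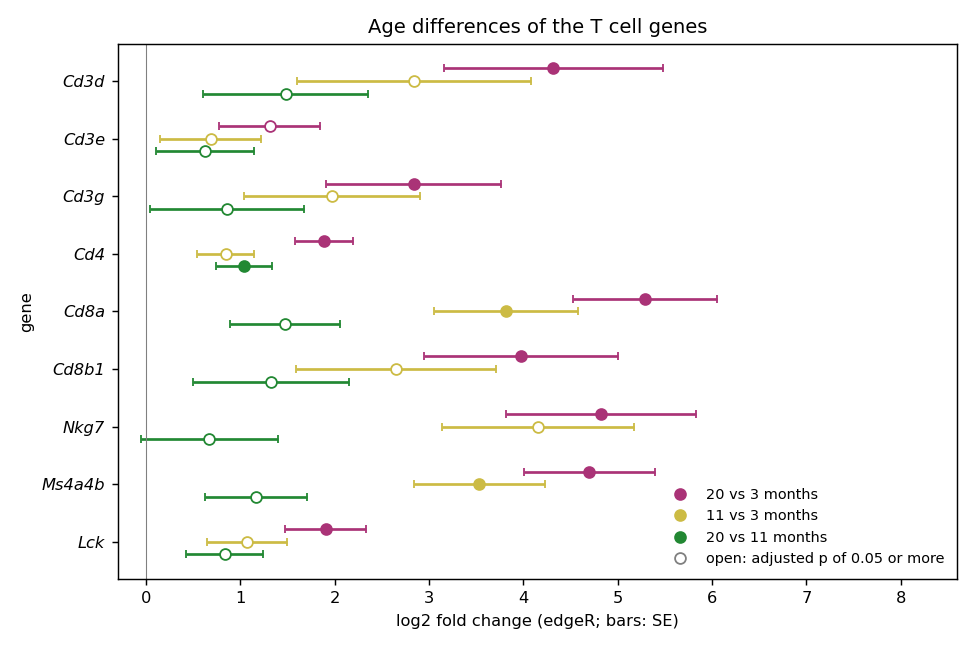
Fitted log2 fold change (x axis) of each T cell gene (y axis) for 20 vs 3, 11 vs 3 and 20 vs 11 months, with bars of 1 SE; filled points have an edgeR adjusted p under 0.05. For 20 vs 3 months 8 of 9 points are filled, for 11 vs 3 months those of Cd8a and Ms4a4b, and for 20 vs 11 months that of Cd4.

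Of the 9 genes, 8 were called higher at 20 than at 3 months and none lower, where 12.0% of the 15525 genes tested were called higher. Their median log2 fold change was 3.98, beside 0.01 over all genes. The libraries of 20 and 3 months did not overlap for 8 of the 9, for Cd3d by only 2 counts against 1. Neither did those of 11.4% of all genes, higher at 20 months. These shares are a description: the count filter, which asks for about 10 counts in 4 libraries, was passed by all 9 genes, but by Cd3d, Cd3g, Cd8a, Cd8b1, Nkg7 and Ms4a4b only through libraries of 11 and 20 months. Such a gene had to differ to be tested. The 9 genes were also chosen with earlier results of these data known.

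Between 11 and 3 months, Cd8a (log2 fold change 3.82, SE 0.76, adjusted p = 0.0325) and Ms4a4b (3.53, SE 0.69, adjusted p = 0.0289) rose. These are 2 of the 9 genes, where 0.979% of all genes were called higher. Both are among the 6 genes that passed the count filter only through libraries of 11 and 20 months, so the shares here are a description too. Nkg7 had a log2 fold change of 4.15 (SE 1.02, adjusted p = 0.0594). The median was 2.65 beside -0.01 over all genes, and 5 of the 9 had no overlap (7.22% of all genes). Without replicate 2 or 4 of 3 months, or without any 1 of the 4 libraries of 11 months, neither gene passed (adjusted p up to 0.0968 for Cd8a and 0.0777 for Ms4a4b). Without 3 months replicate 1, Ms4a4b alone passed (log2 fold change 4.77), and without replicate 3, Cd8a alone (5.66).

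Between 20 and 11 months, Cd4 was the 1 gene of the 9 called, where 7.87% of all genes were called higher. The median log2 fold change was 1.04 beside 0.03 over all genes, and all 9 values were above 0. In CPM, Cd4 and Cd8a had no overlap (10.1% of all genes). The gap of Cd8a was narrow, at 0.871 CPM (27 counts) in 20 months replicate 2 against 0.844 CPM (32 counts) in 11 months replicate 3. Cd8a had a log2 fold change of 1.48 (SE 0.58, adjusted p = 0.0979), and 2 genes passed without 3 months replicate 3. The step from 3 to 11 months was set against that from 11 to 20 months by a contrast of the second minus the first. None of the 9 genes passed it in edgeR, and 0% of all genes were called higher and 3 lower. Nkg7 (-3.48, SE 1.43, unadjusted p = 0.0298) and Ms4a4b (-2.37, SE 1.00, unadjusted p = 0.0342) were the 2 of the 9 with an unadjusted p under 0.05, and their adjusted p was 0.186 and 0.195. Over all 15525 genes tested, 3414 had an unadjusted p under 0.05 in this contrast, so 2 of 9 does not set these genes apart. All comparisons with 3 months share the same 4 libraries.

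Levels per length set the genes in order within an age. At 20 months Ms4a4b (1.17 ± 0.529 FPKM) and Cd4 (1.11 ± 0.265 FPKM) were highest, and Lck (0.930 ± 0.505), Nkg7 (0.921 ± 0.609), Cd3g, Cd3e and Cd8a (0.615 ± 0.257 FPKM) came next (SD, n = 4 each). Cd8b1 (0.442 ± 0.242 FPKM) and Cd3d were lowest, and neighbours in this order differ by less than the larger SD of the pair. At 3 months Cd4 (0.292 ± 0.127 FPKM), Cd3e and Lck (0.239 ± 0.0792 FPKM) led, and the means of the other 6 were at most the 0.101 FPKM of Cd3g. At 11 months the order was led by Nkg7 (0.567 ± 0.350 FPKM), Cd4 (0.528 ± 0.0644 FPKM), Ms4a4b (0.509 ± 0.132 FPKM) and Lck (0.508 ± 0.141 FPKM), with no gap larger than the SD between them (SD, n = 4 each).

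The libraries of 20 months were spread over a wider range than those of 11 months. The summed CPM of the 9 genes was 1.83 to 3.08 at 3 months and 5.94 to 6.72 at 11 months. At 20 months it was 17.7, 8.48, 11.3 and 13.4 in replicates 1 to 4, so the ages did not overlap. Replicate 1 of 20 months held the highest level of its age for Cd3e, Cd8a, Cd8b1, Nkg7, Ms4a4b and Lck, and replicate 2 the lowest for 6 of the 9. Across the 12 libraries the log2(CPM + 1) of Cd8a had a Pearson r of 0.985 with the mean of the other 8 genes, and 0.883 after taking out the age means. The same r was 0.943 for Ms4a4b, 0.902 for Cd8b1, 0.867 for Cd4 and 0.709 for Cd3g. Within ages Cd4 (0.128) and Cd3g (-0.04) did not follow the other genes. These values describe libraries that share age, depth and mouse.

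In the organoids, which grow from dissociated epithelium, 7 of the genes have a row. Cd3g, Cd4, Cd8a, Cd8b1 and Nkg7 had 0 to 3 counts in each of the 12 libraries, with sums of 10, 2, 3, 1 and 6 counts. Cd3e was detected at 6 to 43 counts (0.109 to 0.792 FPKM) and Lck at 61 to 139 counts (0.711 to 1.65 FPKM). The Lck values in these cultures reach the mean of the 20-month ear (0.930 FPKM). The Cd3e values span the means of the 3-month ear (0.267 FPKM) and the 20-month ear (0.687 FPKM), with a mean of 0.568 FPKM in controls. The tables were normalized separately and no test was run between them. By group, Cd3e gave 12 to 24 counts with TNF-α, 9 to 14 with RBM25 knockdown, 6 to 14 with both, and 23 to 43 in controls. Lck gave 87 to 101, 97 to 139, 112 to 137 and 61 to 86 counts in the same groups. No test was run on these groups.

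Around the 9 genes, lists of further T cell genes were counted at 20 against 3 months. Of 19 tested receptor partners and signalling genes, 8 rose and 2 fell, with a median log2 fold change of 1.03, where 12.0% of all genes tested were called higher and 10.7% lower. The same shares stand behind each list below. No library of 3 months reached the count filter for 4 of these 19 genes, nor for Pdcd1, Cd244a, Cst7, Klrk1, Fasl and Cxcr6 in the next lists. Such genes had to differ to be tested, so the list counts are a description. Ptprc, the leukocyte phosphatase CD45, averaged 16.3 ± 4.22 CPM at 20 months and 4.66 ± 0.800 CPM at 3 months (log2 fold change 1.80, SE 0.22, adjusted p = 0.000308). Vav1, an exchange factor of blood cells, rose by a log2 fold change of 1.16 (SE 0.19, adjusted p = 0.00169). The 2 that fell were Thy1 and Fyn, which neurons also make. Of 10 ganglion and Schwann cell markers 7 fell at this age, and their part in the result was not tested. The count of 8 was 3 without 20 months replicate 1 and 5 without 3 months replicate 1.

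Among 10 tested co-stimulatory and inhibitory receptors 5 rose and none fell (median 1.66), and 3 rose without 20 months replicate 1. Pdcd1, the inhibitory receptor PD-1, gave 35, 3, 33 and 19 counts at 20 months and 0, 0, 1 and 0 counts at 3 months. Its pooled CPM was 93.2 times higher, with a counting interval of 16.3 to 3721 (log2 fold change 5.95, SE 1.12, adjusted p = 0.00327). Slamf7, a lymphocyte and myeloid surface receptor, rose by 3.28 (SE 0.65, adjusted p = 0.00416), and Lag3, which binds MHC class II, by 0.87 (SE 0.23, adjusted p = 0.0168).

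Of 16 cytotoxic effector genes, 7 passed the count filter and 3 of them rose, with none lower (median 1.93). Cst7, a protease inhibitor of cytotoxic granules that microglia and macrophages also make, gave 94, 15, 122 and 111 counts at 20 months and 1, 1, 2 and 2 counts at 3 months (5.76, SE 0.66, adjusted p = 0.000216). Klrk1, the activating receptor NKG2D, rose by 3.05 (SE 0.61, adjusted p = 0.00419) and Il2rb, the interleukin-2 receptor beta chain, by 1.93 (SE 0.41, adjusted p = 0.00561). The granzyme genes Gzma, Gzmb and Gzmk did not reach the filter. Gzmm, which did, did not pass (log2 fold change 0.11, SE 0.25, adjusted p = 0.79). Gzmb gave 37, 2, 23 and 7 counts at 20 months and 0, 0, 1 and 0 counts at 3 months, and Gzmk 29, 3, 22 and 3 counts against none.

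Of 13 tested homing and residence genes 8 rose and none fell (median 0.89). Itga4 (0.99, SE 0.13, adjusted p = 0.000441) and Itgb7 (1.81, SE 0.24, adjusted p = 0.000509), integrin chains that can pair, rose, as did Selplg, the P-selectin ligand (1.59, SE 0.28, adjusted p = 0.00223). Of 12 tested chemokine and adhesion ligand genes 7 rose and none fell (median 2.20). Cxcl16 averaged 31.1 ± 4.98 CPM at 20 months and 11.0 ± 1.59 CPM at 3 months (adjusted p = 4.35e-05), and is the ligand of Cxcr6, which rose too (2.57, SE 0.67, adjusted p = 0.0158). Cxcl12 rose by 1.03 (SE 0.15, adjusted p = 0.000917) and Icam1, which binds an integrin of leukocytes, by 2.11 (SE 0.31, adjusted p = 0.00113). Other receptor and integrin genes of the homing list did not pass, such as Cxcr4 (-0.03, SE 0.15, adjusted p = 0.891) and Itgal (0.89, SE 0.40, adjusted p = 0.131). Whether ligands and receptors act together was not tested.

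T cell transcription factors and gamma delta genes gave few calls. Of 13 tested factors none rose and 1, the chromatin organizer Satb1, fell by 0.36 on the log2 scale (SE 0.08, adjusted p = 0.00673), with a median of 0.27. Without 3 months replicate 2 or 20 months replicate 2, 1 factor rose, and 3 did without 3 months replicate 3. Foxp3, the factor of regulatory T cells, had a log2 fold change of 0.97 (SE 0.87, adjusted p = 0.448). Neither of the 2 tested gamma delta genes, Cd163l1 and Sox13, passed. The receptor constant genes Trdc, Tcrg-C1, Tcrg-C2 and Tcrg-C4 have no row. At 3 months the factors summed to 315 to 335 CPM and the gamma delta list to 56.8 to 70.1 CPM. The 9 T cell genes summed to 1.83 to 3.08 CPM there, so these lists cannot show what T cells alone did. The part of other cells in their levels was not tested.

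**Figure D4:**
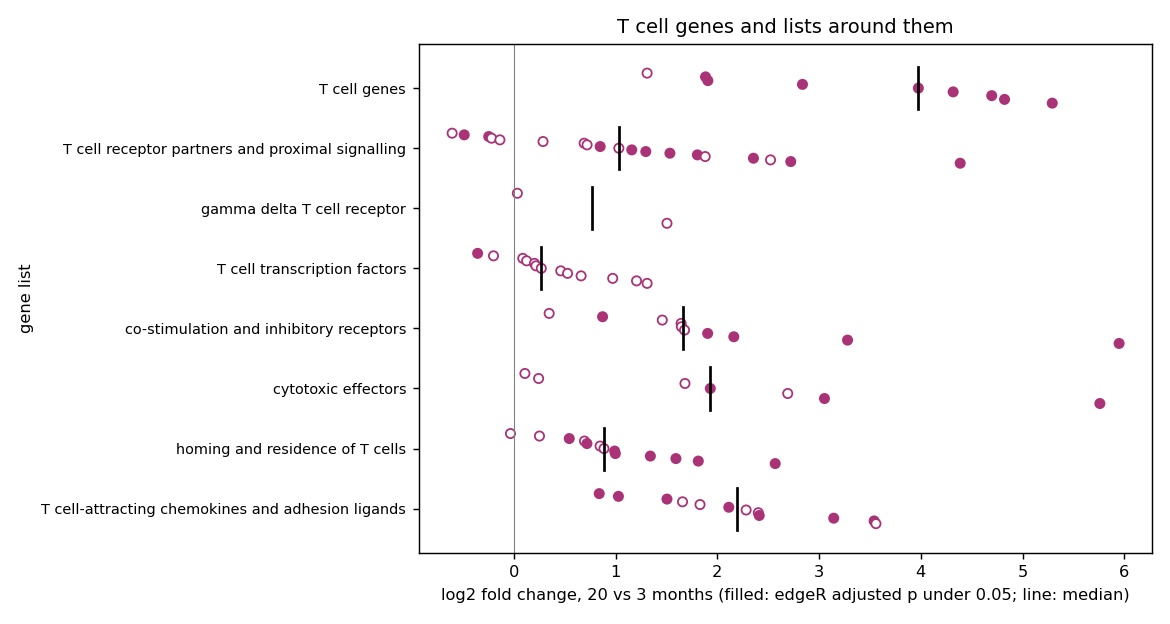
Fitted log2 fold change of each tested gene (x axis), 20 vs 3 months, by gene list (y axis), with filled points for an edgeR adjusted p under 0.05 and a line at the list median. The median is 3.98 for the T cell genes and between 0.27 and 2.20 for the 7 lists around them.

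Markers of other cells moved in the same libraries. Of 14 macrophage and monocyte genes 13 rose at 20 against 3 months, and their summed CPM was 155 to 205 at 3 months, 309 to 347 at 11 months and 280 to 539 at 20 months. Replicate 2 of 20 months, with 280 CPM against 499 to 539 in the other 3, was also the lowest in summed T cell genes. Of 9 tested dendritic cell genes 3 rose (Itgax, Bst2 and Siglech) and 1 fell, beside 12.0% and 10.7% of all genes. Itgax gave 85 to 141 counts at 20 months and 8 to 30 at 3 months. The gene that fell was Flt3 (log2 fold change -0.52, SE 0.14, adjusted p = 0.0191), and Zbtb46 (0.10, adjusted p = 0.709) did not pass. Of 11 B lineage genes 3 rose, namely Jchain (log2 fold change 4.20, SE 0.61, adjusted p = 0.000747), Xbp1 (0.43) and Cd22 (1.36), while Cd79a (0.05, adjusted p = 0.965) did not pass. Of the natural killer and innate lymphoid list Gata3, Il7r and Rora passed the count filter, and Il7r rose (2.10, SE 0.55, adjusted p = 0.0171). Ncr1, a defining natural killer receptor, had 1 count in all at 3 months, 9 at 11 months and 1 at 20 months. The part of these cells in the result was not tested.

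Blood, marrow and neighbouring tissue varied among libraries. Red cell genes summed to 334 to 1032 CPM at 20 months and 270 to 1284 CPM at 3 months, and neutrophil and marrow genes to 16.8 to 182 and 13.5 to 94.6 CPM, with no gene of either list called. The 182 CPM belonged to 20 months replicate 1, the library highest in T cell genes, which also had 1103 CPM of mucosal genes, as had replicate 2 with 1094. With the marrow or the mucosal score as a covariate, 8 of the 9 genes were called at 20 against 3 months. Muscle (4 of 13) and bone (3 of 11) genes fell and 3 of 10 brain genes rose at 20 months. With the muscle and bone score or the brain score as a covariate, 3 genes remained called in each, Cd4, Cd8a and Ms4a4b. With the muscle and bone score 5 signalling genes, no co-stimulatory or inhibitory receptor, 2 cytotoxic, 5 homing and 6 chemokine or adhesion genes were called higher. With the brain score these counts were 3, 1, 1, 4 and 4. Age and these scores move together, and their part in the result was not tested.

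**Figure D5:**
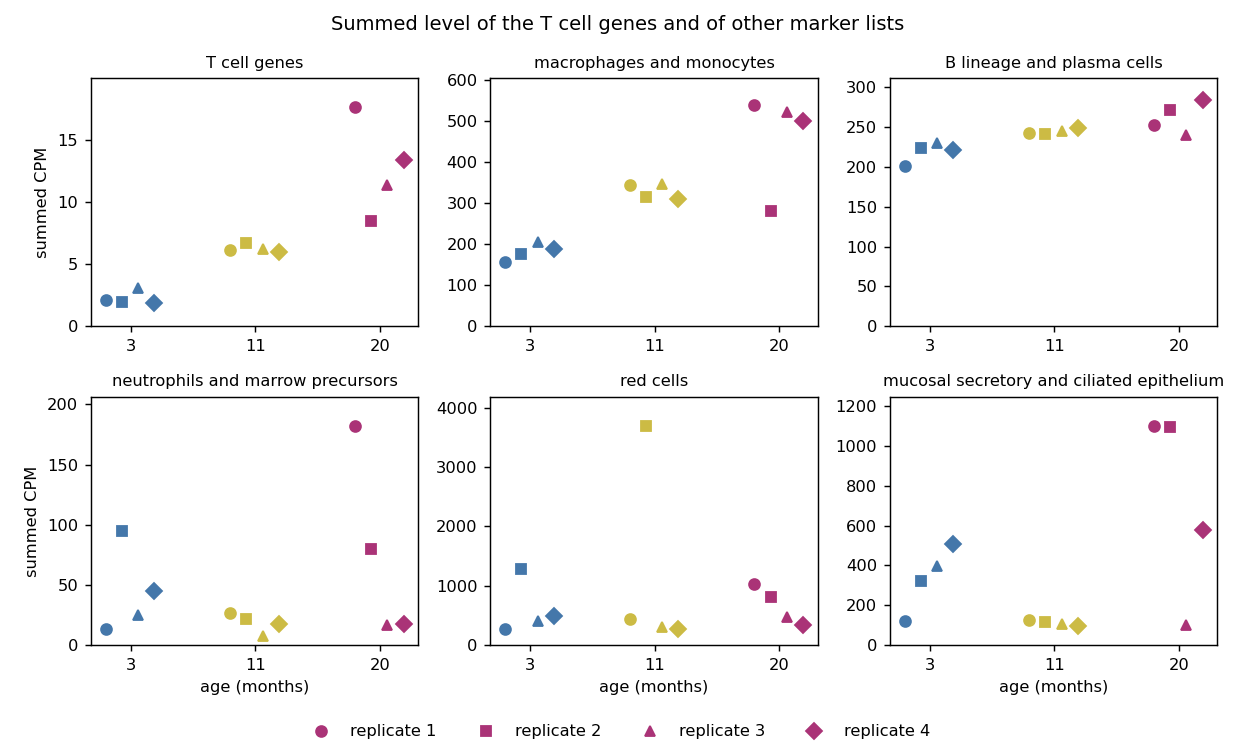
Summed CPM (y axis) of the T cell genes and of 5 marker lists of other cells in each inner ear library, by age in months, one marker shape per replicate number. T cell genes and macrophage genes are lowest at 3 months (1.83 to 3.08 and 155 to 205 CPM), while marrow, red cell and mucosal sums vary among libraries of one age.

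Outside the 9 genes, the 8 named genes with a log2(CPM + 1) most like their mean over the 12 libraries were Ptgs2 (r = 0.985), Itgb7 (0.985), Ch25h (0.970), H2-Eb1 (0.969), H2-Aa (0.966), H2-D1 (0.964), Pde8a (0.962) and Cd52 (0.962). After taking out the age means, r was 0.709 to 0.910. Ptgs2, the inducible cyclooxygenase, gave 746, 177, 367 and 314 counts at 20 months and 37, 47, 35 and 47 counts at 3 months. Ch25h, cholesterol 25-hydroxylase, gave 429, 139, 231 and 174 counts at 20 months and 5, 29, 20 and 23 counts at 3 months. In both, as in the summed T cell genes, 20 months replicate 1 was highest and replicate 2 lowest. Their choice by likeness over the same libraries favours such an order. H2-Eb1 and H2-Aa, which encode MHC class II chains, and the class I gene H2-D1 averaged 54.4, 61.2 and 336 CPM at 20 months and 14.4, 15.9 and 159 CPM at 3 months.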

How the data were processed

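Libraries were made with the TruSeq RNA kit v2, which does not mark strand, and run on an Illumina HiSeq instrument, per the labels' protocols. Tools named are Trimmomatic, HISAT2, HTSeq and DESeq2, with mm10 as the build, per the submitters' processing notes; no version is given there. As deposited, the counts are whole numbers of reads per gene, not normalized. The FPKM values were scaled by the authors for gene length and depth and were used for levels per length and for limma. No per-sample column was left unmapped (0).

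The aging counts of all 12 libraries were fitted with edgeR 4.0.16 in R 4.3.3 (TMM, filterByExpr, robust quasi-likelihood F-test, two-sided, Benjamini-Hochberg over 15525 genes, threshold 0.05; common biological coefficient of variation 19.8%). The pipeline was tested on simulated data. SE is the log2 fold change divided by the square root of F. CPM used TMM-scaled library sizes. Ratios of pooled CPM carry exact 95% conditional binomial intervals, which cover counting error only.

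Samples were grouped by the age in their labels, as separate mice. Described were all 10 listed genes, up to 3 called genes of each list with the smallest p at 20 against 3 months (some results are not reported here), and the 8 other genes most like the members' mean, without predicted genes. Thy1, Fyn, Foxp3, Cxcr6, Cxcr4, Itgal, Cd244a, Fasl, Gzma, Gzmb, Gzmk, Gzmm, Cd163l1, Sox13, Flt3, Zbtb46, Cd79a and Ncr1 were named after their values were seen. The members and lists were chosen with earlier results of these data known. Alternatives were DESeq2 1.42.0 and its size factors, no filter, pairwise fits, a replicate block, limma 3.58.1 on log2(FPKM + 1) and log2(FPKM + 0.1), glmTreat at 1.5-fold, each library left out, and 4 tissue scores as covariates. Positions are RefSeq's (GRCm38.p6) and exon overlaps GENCODE vM21's. Trac, Trbc1, Trbc2 and other receptor and antibody constant genes were not analysed here. Figures were drawn with matplotlib 3.10.9.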

Additional observations from a re-analysis of the deposited data

Results flagged for a closer look

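Of 90 groups of 4 libraries examined, 10 held a library far from the other 3, and chance alone gives about 1 in 20. Among the T cell genes, Cd4 at 11 months was 2.18 CPM in replicate 4 and 1.69 to 1.76 CPM in the others. Cd8b1 at 20 months was 1.16 CPM in replicate 1 and 0.397 to 0.516 CPM in the others. At 3 months Cd8b1 was 0.151 CPM in replicate 3 and Nkg7 0.0931 CPM in replicate 2, with 0 in the other 3 libraries of each.

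Among summed marker lists, 20 months replicate 2 was low in macrophage genes (280 CPM, others 499 to 539) and in hair cell genes (144 CPM, others 223 to 232). At 11 months, replicate 1 was low in dendritic cell genes (82.7 CPM, others 103 to 104), replicate 2 high in red cell genes (3698 CPM, others 277 to 439) and replicate 3 high in ganglion and Schwann cell genes (20251 CPM, others 18433 to 18744). The gamma delta list was 70.1 CPM in 3 months replicate 2 and 56.8 to 58.5 CPM in the others of that age.

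In the organoid libraries, which enter no test here, Cd3e summed to 207 counts and Lck to 1227 counts over 12 libraries, above the limit of 3 counts that a count of 0 allows.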

How the results depend on the processing

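Over 849 refits of single T cell genes, 752 kept direction and side of the threshold, 64 lost a call, 10 gained one and 23, none of them called in either fit, changed sign. At 20 against 3 months the 8 genes called became 4 with a minimum fold of 1.5, 3 with the muscle and bone score and 3 with the brain score as a covariate, 7 with no count filter or a fit of the 2 ages alone, and 6 to 8 with a library left out. Cd4, Cd8a and Ms4a4b passed in all of these, and Cd3g lost its call in 15. At 11 against 3 months the 2 genes called became 0 with limma on log2(FPKM + 1), with the minimum fold and with the mucosal, muscle and bone, or brain score, and 0 to 3 with a library left out. At 20 against 11 months the 1 gene called became 2 with DESeq2, with a fit of the 2 ages alone and with log2(FPKM + 0.1), 3 with log2(FPKM + 1), 0 with the minimum fold or any of the 4 scores, and 0 to 2 with a library left out. The second minus the first age step gave 0 in every refit. Where its sign changed, the value was 0.0906 (Cd3d), 0.0465 (Cd3e), 0.14 (Cd8a), 0.10 (Cd8b1) and 0.0459 (Lck) with log2(FPKM + 1) and 0.21 (Cd3d) with log2(FPKM + 0.1). It was -0.10 (Cd4) with the mucosal score, 0.54 (Cd3e), 1.37 (Cd8a), 2.16 (Cd8b1) and 0.94 (Lck) with the muscle and bone score, and 0.32 (Cd3d), 0.94 (Cd3e) and 0.70 (Lck) with the brain score. With a library left out it ran between -2.19 and 0.21 for Cd3d, -0.53 and 0.44 for Cd3e, -0.14 and 0.37 for Cd4, and -0.66 and 0.12 for Lck. Cd3e at 11 against 3 months was -0.14 with the brain score. With the replicate number as a block, 7, 1, 0 and 0 genes were called in the 4 contrasts. The numbers mark different mice, and same-numbered libraries had deviations correlated at -0.271 to 0.228. Pairs with different numbers were not compared, so these values cannot tell whether a number stands for anything shared. The cause of these differences was not tested. In the lists at 20 against 3 months, a fit of the 2 ages alone called 5 signalling genes higher in place of 8 and 2 co-stimulatory or inhibitory receptors in place of 5. DESeq2 called 12 signalling genes in place of 8, 6 cytotoxic genes in place of 3 and 3 transcription factors in place of 0, and no count filter gave 5 cytotoxic genes. With the minimum fold of 1.5, 2 signalling, 2 co-stimulatory or inhibitory, 2 cytotoxic, 2 homing and 3 chemokine or adhesion genes were called higher. Counts of 2 to 7 per gene at 3 months limit the precision of the largest folds.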
